A study of Mus musculus with 4 samples.

Results

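Of the MSI2 crosslinking peaks deposited for mouse intestinal epithelium, about 1 peak in 4 lay outside every annotated gene, and these are described here. A peak was taken as lying outside genes when none of its bases fell in the span, from first to last base, of any RefSeq gene on mm10, whatever the kind of gene (protein-coding, long non-coding, small RNA or pseudogene). Each genotype has 1 peak list, and each list was treated apart. In the wild-type (WT) list 3133 of 12052 peaks on placed chromosomes met the rule, which is 26.0% (95% exact Clopper-Pearson interval 25.2% to 26.8%). Among TRE-Msi2 peaks 4269 of 16928 met it, which is 25.2% (24.6% to 25.9%). By length they made up 1028 of 4011 kb under all peaks for WT, and 1967 of 6702 kb for TRE-Msi2. The remaining 8919 WT and 12659 TRE-Msi2 peaks, which touched at least 1 gene span, serve below as the comparison within each list.

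The study used CLIP-seq, in which ultraviolet light joins a protein to the RNA it touches, an antibody pulls the protein down, and the attached RNA pieces are sequenced and placed on the genome. The 4 libraries were 2 from WT crypts with no doxycycline recorded and 2 from total intestinal epithelium of TRE-Msi2 mice given doxycycline for 24 hours. All were on a C57BL6 background, were crosslinked at 265 nm (400 mJ/cm2, 2 pulses), and were precipitated with an MSI2 antibody, and the labelled complex near 50 kD was recovered. The doxycycline-responsive TRE promoter drives the Msi2 transgene, and the driver of its transactivator is not given in the sources used here. Genotype, tissue fraction and doxycycline changed together and cannot be told apart. Both libraries of a genotype were pooled into its list, so no difference between lists has a replicate check, and every interval in the text covers counting error only, over peaks that are not independent of each other.

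MSI2 is a Musashi protein, a family of RNA-binding proteins with RNA recognition motifs that favour short elements with a UAG core and are best known for regulating the translation and stability of messenger RNAs in stem and progenitor cells. Its known targets are mostly in mature messenger RNA, above all in their 3' ends. RNA read from outside annotated genes can come from a transcript that runs past its annotated end, from a gene missing from the annotation, from an upstream or antisense transcript, or from a repeated element with copies in many places, and a peak list does not distinguish these.

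The sequence table used here covers the 250 bases before and 50 bases after gene starts, so base letters exist only for peaks that reach into such a window. In all, 8 stretches met this, 6 of them on the strand of the gene, and 3 of the 8 were covered in both lists. The 5 same-strand stretches of more than 20 bases are shown as examples of sequence under peaks outside genes near a start; the remaining 3 are a 13-base stretch before Gm43305 (WT score 53) and those opposite to Gm13710 and Gm35279. They come from RefSeq on GRCm38.p6 (the mm10 assembly) and are written 5' to 3' on the strand of the peak, with each TAG (UAG in RNA) in capitals.
Ptn, chr6:36810401-36810429, minus strand: agctatggacccatgggagggggagaaaa
Gm34746, chr4:117698825-117698995, plus strand: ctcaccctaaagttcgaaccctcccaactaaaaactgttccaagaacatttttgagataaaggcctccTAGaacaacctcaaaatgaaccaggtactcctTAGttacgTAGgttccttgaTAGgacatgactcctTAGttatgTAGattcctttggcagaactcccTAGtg
Gm40514, chr9:41911118-41911186, minus strand: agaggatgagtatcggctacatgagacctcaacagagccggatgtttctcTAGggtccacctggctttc
Gm10768, chr19:43838553-43838710, plus strand: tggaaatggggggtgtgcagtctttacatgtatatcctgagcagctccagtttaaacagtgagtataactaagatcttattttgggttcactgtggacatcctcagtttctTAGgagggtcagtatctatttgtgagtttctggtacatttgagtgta
Gm40843, chr12:19243670-19243745, plus strand: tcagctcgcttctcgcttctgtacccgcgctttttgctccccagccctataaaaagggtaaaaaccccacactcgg

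TAG was searched on the strand of the peak only, since CLIP reads carry the strand of the RNA, and its reverse complement CTA was not counted. The stretch before Gm34746 held 7 TAGs in 171 bases. Of the 32817 promoter windows searched at the same place and length, 81.5% held at least 1 and 201 (0.612%) held as many as 7, with a median of 2. The score of this peak, a value the authors gave each peak that is explained below, was 22 in WT and 29 in TRE-Msi2. The stretches before Gm40514 and Gm10768 each held 1 TAG, and at least 1 was held by 52.5% and 79.4% of their matched windows. Both of these peaks also lie past the end of another gene on the same strand. The Gm10768 peak, found in the TRE-Msi2 list with a score of 21, is 178 nt beyond Abcc2, an organic anion transporter, and the Gm40514 peak is 431 nt (WT) or 231 nt (TRE-Msi2) beyond the long non-coding RNA gene Gm36227. Those before Ptn, which encodes the heparin-binding growth factor pleiotrophin, and Gm40843 held none. The Ptn peak, whose nearer edge lay 221 nt before the annotated start, scored 22 in WT and 40 in TRE-Msi2. These matches describe the letters in the windows and do not mark binding sites.

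The whole lists limit what can be read from the peaks. Peaks were present in marker genes of the labelled tissue, though not in all of them. All 6 enterocyte and all 5 Paneth cell markers had a same-strand peak in both lists (either strand where the gene's strand is unknown), and 3 of 4 goblet cell markers did. Of the 3 enteroendocrine markers 2 (WT) and 3 (TRE-Msi2) had one, and of the 2 tuft cell markers 1 and 0. Among all 17492 protein-coding genes of known strand, 2888 (WT) and 3593 (TRE-Msi2) had a same-strand peak inside. Of the 3 immune markers 1 had a peak and of the 3 stromal markers 0 had one, in each list, and the part of these cell types in the peaks outside genes was not tested. The deposited lists give no library depth. The strand labels of the TRE-Msi2 list differ from those of the WT list at some loci: 68 WT peaks outside genes were overlapped by a TRE-Msi2 peak only on the opposite strand, and 67 of these 68 were on the minus strand in the WT list. Within the TRE-Msi2 list, 217 of 2342 plus-strand peaks outside genes (9.27%) lay within 2 kb of a minus-strand peak outside genes, against 1 of 1571 in the WT list. The shares of peaks in clusters and shared between lists are therefore also given with strand ignored. Other results that depend on strand, such as the relation to gene strand, the gaps and the recurring pair described below, were not recomputed that way.

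Peaks outside genes had somewhat lower scores than peaks inside genes of the same list. The score is the authors' own value for each peak. It is a whole number in nearly all peaks of a single 200-nt bin, the unit in which the peaks were called, and wider peaks carry fractions. In the WT list the median was 18 outside genes (quartiles 15.4 and 21.3, highest 103) and 19 inside (highest 143). For TRE-Msi2 it was 24 outside (quartiles 21 and 28.3, highest 100.3) and 25 inside (highest 124). The gap was widest among strong peaks. A score over 50 was reached by 22 WT peaks outside genes (0.702%) against 145 inside (1.63%), and by 31 TRE-Msi2 peaks outside (0.726%) against 421 inside (3.33%). The medians did not differ among peaks of a single bin, at 19 both outside and inside for WT and 25 both outside and inside for TRE-Msi2. Scores were not compared between the lists, because depth is unknown.

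The width of the peaks set the TRE-Msi2 list apart outside genes. A single 200-nt bin made up 56.7% (54.9% to 58.4%) of WT peaks outside genes and 65.5% of those inside. For TRE-Msi2 the shares were 46.1% (44.5% to 47.6%) outside and 63.1% inside. The wider peaks fell at particular widths. In the WT list the class of 400 nt held 33.6% of peaks outside genes and 21.6% of those inside, and in the TRE-Msi2 list 26.0% and 19.9%. In the TRE-Msi2 list the class of 1000 nt held 491 peaks outside genes, or 11.5%, against 426 inside, or 3.37%. Peaks of 1 kb or more made up 17.2% (16.1% to 18.3%) of TRE-Msi2 peaks outside genes but 7.65% inside, whereas in the WT list the shares were 3.29% and 4.27%. The difference between outside and inside at 1 kb or more was thus in opposite directions in the lists, with no replicate to judge it against.

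**Figure D1:**
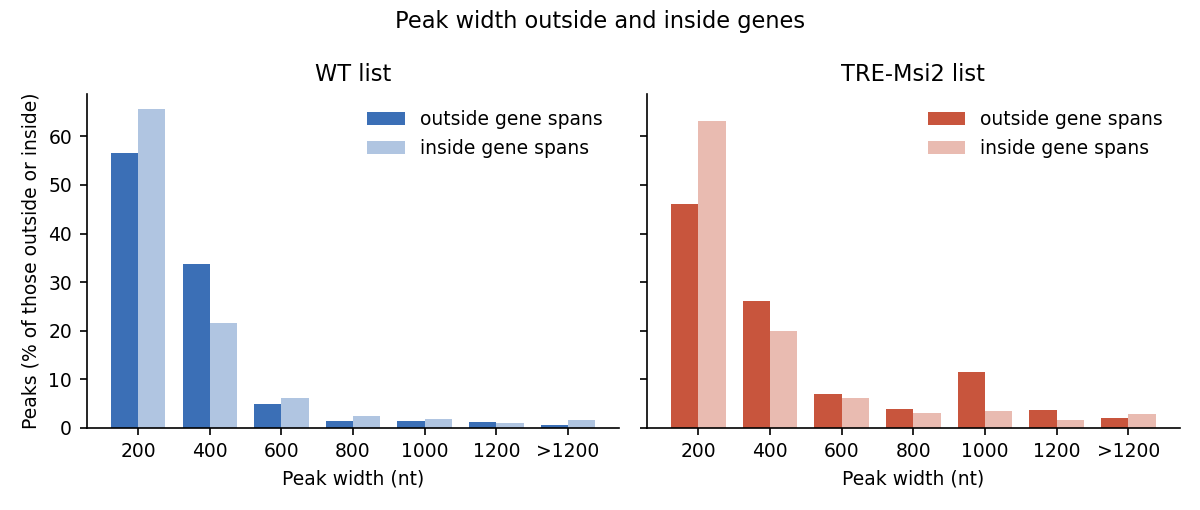
Share of peaks (vertical axis, % of the peaks outside or inside genes of that list) in each width class (horizontal axis, nt), with the WT list on the left and the TRE-Msi2 list on the right. Dark bars are peaks outside gene spans and pale bars peaks inside; the WT class of 400 nt and the TRE-Msi2 class of 1000 nt are taller outside genes (33.6% against 21.6%, and 11.5% against 3.37%).

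Most peaks outside genes were not close to a gene. The median distance from the nearer peak edge to the nearest gene end was 16.9 kb for WT peaks (quartiles 6.59 and 51.5 kb) and 17.3 kb for TRE-Msi2 peaks (6.95 and 54.1 kb). Within 1 kb of a gene lay 3.19% of WT and 3.33% of TRE-Msi2 peaks, within 5 kb 18.2% and 17.3%, and within 10 kb 35.4% and 33.9%. Beyond 100 kb lay 369 WT peaks (11.8%) and 541 TRE-Msi2 peaks (12.7%). The 3 farthest in the WT list included 2 neighbouring peaks on chromosome 5 (chr5:46944362-46944761 and chr5:46944962-46945361, plus strand) about 529 kb from the pseudogene Gm7931, with scores of 12.3 and 16.7, and the TRE-Msi2 list had a peak over the same place with a score of 22.8. The farthest TRE-Msi2 peak, chr15:15060846-15061045 on the minus strand, lay 594 kb from the pseudogene Gm9630, scored 21 and had no same-strand WT peak over it.

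The nearest gene was protein-coding for 35.1% of WT and 34.8% of TRE-Msi2 peaks outside genes, although protein-coding genes are 43.8% of the gene table. Pseudogenes that are not known to be transcribed, which are copies of genes that no longer encode a protein, were nearest to 31.7% and 32.8% of peaks and make up 19.9% of the table. Long non-coding RNA genes were nearest to 24.96% and 23.7% and make up 25.5% of it. These table shares are not the shares random positions would give, since genes of different kinds lie in regions of different density, and that was not computed. The gene strand is known here only for genes in the promoter or miRNA tables, 28097 of 49980, and the nearest gene had no strand for 1637 WT peaks (52.3%) and 2293 TRE-Msi2 peaks (53.7%).

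Close to the 3' end of genes the peaks were almost all on the strand of the gene. In the first 1 kb beyond a 3' end, 41 of 43 peaks in WT (95.3%, 84.2% to 99.4%) and 52 of 54 in TRE-Msi2 (96.3%, 87.3% to 99.5%) were on the same strand as the gene that ends there. From 1 to 2 kb the counts were 27 of 29 (93.1%) and 39 of 51 (76.5%). From 2 to 5 kb they fell to 73 of 125 (58.4%, 49.2% to 67.1%) and 83 of 157 (52.9%, 44.8% to 60.9%), intervals that include equal numbers on each strand. Of the peaks over a single protein-coding span, 84.3% (WT) and 86.3% (TRE-Msi2) were on the strand of that gene. Peaks just past a gene end therefore matched the gene's strand at least as often as peaks inside genes, and those a few kilobases further on did not.

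Before the 5' end the pattern was flatter. In the nearest 1 kb, 18 of 28 peaks in WT (64.3%, 44.1% to 81.4%) and 22 of 29 in TRE-Msi2 (75.9%, 56.5% to 89.7%) were on the strand of the gene. From 2 to 5 kb the shares were 73.8% (64.2% to 82.0%) and 70.7% (61.5% to 78.8%). From 5 to 10 kb they were 56.7% and 53.5%, and from 10 to 50 kb 45.6% and 43.2%. They were higher again from 50 to 100 kb, at 63.1% and 60.4%, and beyond 100 kb, at 56.5% and 55.3%. More than 100 kb past a 3' end, 23 of 64 WT peaks (35.9%) and 37 of 102 TRE-Msi2 peaks (36.3%) were on the strand of the nearest gene. Many peaks are present in both lists, so the likeness of the lists in these shares is not independent support.

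**Figure D2:**
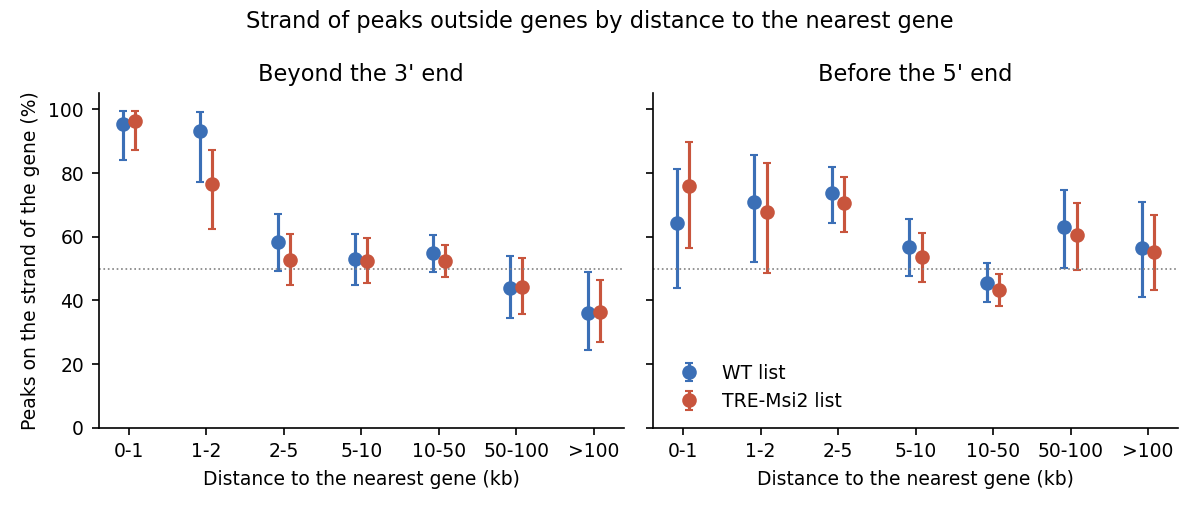
Share of peaks outside genes on the strand of the nearest gene (vertical axis, %) by distance to that gene (horizontal axis, kb), beyond the 3' end on the left and before the 5' end on the right, for the WT list and the TRE-Msi2 list. Points are shares, bars are 95% exact binomial intervals and the dotted line marks 50%; within 1 kb of a 3' end the shares are 95.3% and 96.3%, and from 5 to 10 kb they are 52.9% and 52.5%.

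Few genes had such a peak beyond their end. Of the 17492 protein-coding genes of known strand, 70 (0.4%) had a same-strand WT peak outside genes within 5 kb of their 3' end, and 91 (0.52%) had such a TRE-Msi2 peak. Among genes that also had a same-strand peak inside their span the share was 37 of 2888 in the WT list (1.28%, 0.904% to 1.76%) and 44 of 3593 in the TRE-Msi2 list (1.22%, 0.891% to 1.64%). Among genes without one it was 33 of 14604 (0.226%, 0.156% to 0.317%) and 47 of 13899 (0.338%, 0.249% to 0.449%). Genes with an MSI2 peak inside were thus more often followed by one past the annotated end, in both lists, and the intervals do not overlap. Those intervals treat genes as independent, although neighbouring genes such as Ddi2 and Rsc1a1 are counted for the same peaks. The RNA level of the genes was not used, and its part in this difference was not tested.

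The peaks past a gene end were grouped by the genes that had most of them. Scores given for peaks inside these genes are those of peaks on the strand of the gene. Abhd2, which encodes a serine hydrolase of the alpha/beta hydrolase family, had 5 such WT peaks and 4 such TRE-Msi2 peaks, 313 to 3713 nt and 913 to 3713 nt beyond its end (chr7:79273266-79361601, plus strand). Its strongest, chr7:79362515-79362914, scored 51 and 57.5, above the strongest peak inside the gene at 45 and 40. Lnpep, the insulin-regulated aminopeptidase (chr17:17527723-17624489, minus strand), had 4 and 5 peaks, the strongest 1686 nt beyond the end with scores of 45.5 and 44.5 against 21 and 30 inside the gene. At both genes the strongest of these same-strand peaks in either list lay past the annotated end.

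Oip5os1, the long non-coding RNA also called Cyrano, had 5 peaks in each list between 118 and 4318 nt beyond its end, and the farthest was the strongest, at 29 (WT) and 31 (TRE-Msi2). The histone gene H4c17 had 4 peaks in each list, of which the strongest, 2181 nt beyond the gene, scored 28.8 and 32.75. All 4 of the WT peaks and 3 of the TRE-Msi2 peaks also lay within 5 kb of the neighbouring histone gene H2ac23, and neither gene had a same-strand peak inside. Klrb1f, a C-type lectin-like receptor of lymphocytes, had 4 and 5 peaks beyond its end and none inside on its strand, with highest scores of 23 and 23.3. Parp11, an ADP-ribosyltransferase, likewise had 4 and 4 beyond and none inside on its strand, with highest scores of 22 and 35.3.

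The intestinal genes among those named were Enpp7 and Btnl4. Enpp7, the alkaline sphingomyelinase of the brush border, had 4 WT peaks and 3 TRE-Msi2 peaks past its end, with highest scores of 23 and 31.7 against 22.5 and 31 inside. Btnl4, a butyrophilin-like gene, had 3 and 2, the strongest 1354 nt beyond the end with scores of 28.5 and 36.3 against 19 and 27.75 inside. Ak9, an adenylate kinase, had 3 in each list from 3025 nt beyond its end, with highest scores of 30.75 and 35.8 and no same-strand peak inside. Mob1b, a partner of the Hippo pathway kinases, had 3 WT and 5 TRE-Msi2 peaks, with highest scores of 24 and 27.3 against 24.5 and 24 inside. Ddi2, an aspartic protease, and Rsc1a1, which ends at the same base, shared 2 WT and 5 TRE-Msi2 peaks, the strongest at 16.5 and 27.5, and Esp5 had 3 and 4, the strongest at 22 and 32.

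The gene lists set up for this tissue held almost none of these peaks. Of 222 genes in 13 lists (enterocyte, Paneth, goblet, enteroendocrine, tuft and stem cells, proliferation, immune and stromal cells, RNA-binding regulators, translation factors, PI3K and Akt signalling, and Wnt), 168 have a known strand. In the WT list 0 of the 168 had a same-strand peak outside genes within 5 kb beyond the end, and in the TRE-Msi2 list 1 did. That gene was Eif3c, which encodes a subunit of a translation initiation factor, with a score of 24 at 224 nt beyond its end. A peak inside the span, on either strand, was present in 132 of the 222 for WT (59.5%) and 137 for TRE-Msi2 (61.7%), against 20.3% and 24.9% of all protein-coding genes. The lists were chosen with earlier results of these data known, so that difference is not an independent result. A count of 0 among 168 genes allows a share of up to 1.79%, so neither count (0% and 0.595%) stands apart from the 0.4% and 0.52% of all protein-coding genes.

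Peaks outside genes lay close together more often than peaks inside genes. Peaks of 1 list on 1 strand were joined into a cluster when the gap between them was at most 2 kb. In the WT list 2302 of the 3133 peaks outside genes (73.5%, 71.9% to 75.02%) were in a cluster, against 50.6% of peaks inside genes and 57% of all WT peaks. Among TRE-Msi2 peaks it was 2894 of 4269 (67.8%, 66.4% to 69.2%), against 53.0% inside and 57.2% of all. The clusters outside genes were small: of 890 in the WT list 578 were pairs, 211 held 3 peaks and 101 held more, up to 9, and of 1111 in the TRE-Msi2 list 741 were pairs and the largest held 10. Their median span was 1000 nt for WT and 2200 nt for TRE-Msi2, against 1600 and 2000 nt inside genes. Among peaks at or above the list median in score, clustered with each other only, the shares fell to 43.1% outside and 36.7% inside for WT and to 42.4% and 38.4% for TRE-Msi2. With strand ignored the share rose to 76.7% in the TRE-Msi2 list and stayed at 73.5% in the WT list.

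The gaps within clusters were not spread evenly. In the WT list a gap of 400 nt was the most frequent outside genes, at 31.7% of gaps (29.2% to 34.2%), against 21.7% inside. In the TRE-Msi2 list a gap of 1000 nt made up 30.5% (28.4% to 32.7%) outside genes and 10.4% inside. Read 5' to 3', the most frequent WT cluster outside genes was a 200-nt peak, a gap of 400 nt and a 400-nt peak, in 188 of 890 clusters (21.1%) against 75 of 1646 inside (4.56%). The most frequent TRE-Msi2 clusters were a 1000-nt peak, a gap of 1000 nt and then a peak of 400 nt (146 of 1111, 13.1%) or 200 nt (111, 9.99%), against 2.25% and 1.80% inside genes. The same arrangement of widths and gaps thus recurred at many separate places outside genes.

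**Figure D3:**
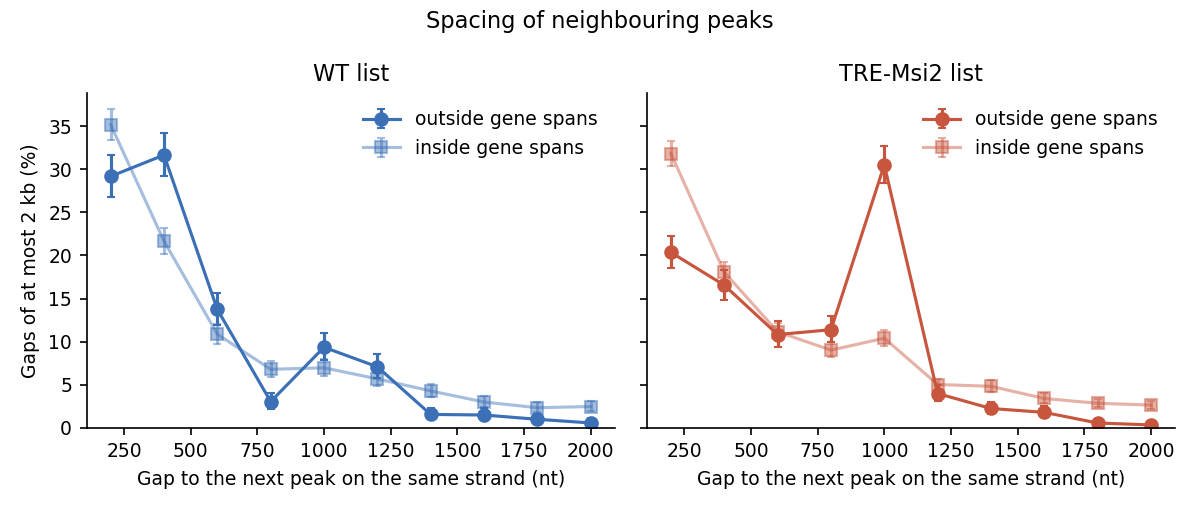
Share of the gaps of at most 2 kb between neighbouring same-strand peaks (vertical axis, %) by gap length rounded to 200 nt (horizontal axis), for the WT list on the left and the TRE-Msi2 list on the right. Circles are peaks outside gene spans, squares peaks inside, and bars 95% exact binomial intervals; the TRE-Msi2 points outside genes reach 30.5% at 1000 nt against 10.4% inside.

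This recurring pair was defined after the data were seen, as a TRE-Msi2 peak of 800 to 1200 nt followed 5' to 3' on the same strand, after a gap of 800 to 1200 nt, by a peak of at most 400 nt. It was found at 477 loci outside genes, which hold 954 of the 4269 TRE-Msi2 peaks (22.3%, 21.1% to 23.6%), and at 219 loci inside genes, which hold 3.46% of the peaks there. The 477 loci were on 21 chromosomes, 277 on the plus strand and 200 on the minus strand, at a median of 19.0 kb from the nearest gene. Of the 811 TRE-Msi2 peaks of 800 to 1200 nt outside genes, 477 (58.8%, 55.3% to 62.2%) were the first of such a pair, against 219 of 1015 inside (21.6%, 19.1% to 24.2%).

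The second peak of a pair tended to score higher than the first. The first peak had a median score of 22.4 (SD 2.49 over 477 loci, lowest 16.4, highest 30.2) and the second a median of 28.3 (SD 4.87, lowest 18.7, highest 45). By definition the first peak is the wider, and the scores were not matched for width. Among TRE-Msi2 peaks outside genes, single bins scored at least 20 and peaks of any width at least 13.7. The median span from the start of the first to the end of the second was 2400 nt. On the same strand, TRE-Msi2 peaks ahead of the pair were most frequent 800 to 1000 nt before its start, at 26 of the 477 loci (5.45%). Further out, beyond 1200 nt before and 3000 nt after the start of the first peak, no 200-nt bin held a peak of either list at more than 8 loci (1.68%). On the opposite strand no bin did at more than 2 (0.419%). The definition asks for a second peak on the same strand, so wide peaks with one on the opposite strand only are not among these loci. The low counts on the opposite strand at the second place are therefore partly fixed by the definition. The pairs inside genes mostly ran against the gene: at the 137 with a host of known strand, 43 were on its strand and 94 on the other (31.4% same, 23.7% to 39.9%), against the 86.3% given above for all TRE-Msi2 peaks over a single protein-coding gene. Whether the loci share a sequence was not tested, since neither the genome sequence nor an annotation of repeats was used here.

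The WT list had peaks at the same loci in a different form. A WT peak lay over the first peak at 475 of the 477 loci (99.6%, 98.5% to 99.9%), and at 364 (76.3%) several did. The WT peaks covered the first 200 nt at 58.5% of loci and the bins from 600 to 1000 nt at 86.0% and 81.8%, but the bin from 400 to 600 nt at 23.3%. Over the second peak a WT peak was present at 106 loci (22.2%, 18.6% to 26.2%). Only 3 loci of the WT list outside genes had the pair by the same definition. At 1 example, chr14:58056364-58057363 on the plus strand, the TRE-Msi2 list had a 1000-nt peak with a score of 20.9 and, at chr14:58058364-58058563, a 200-nt peak with a score of 45. The WT list had 3 peaks there, of 200, 400 and 200 nt, with scores of 22, 17 and 20.

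**Figure D4:**
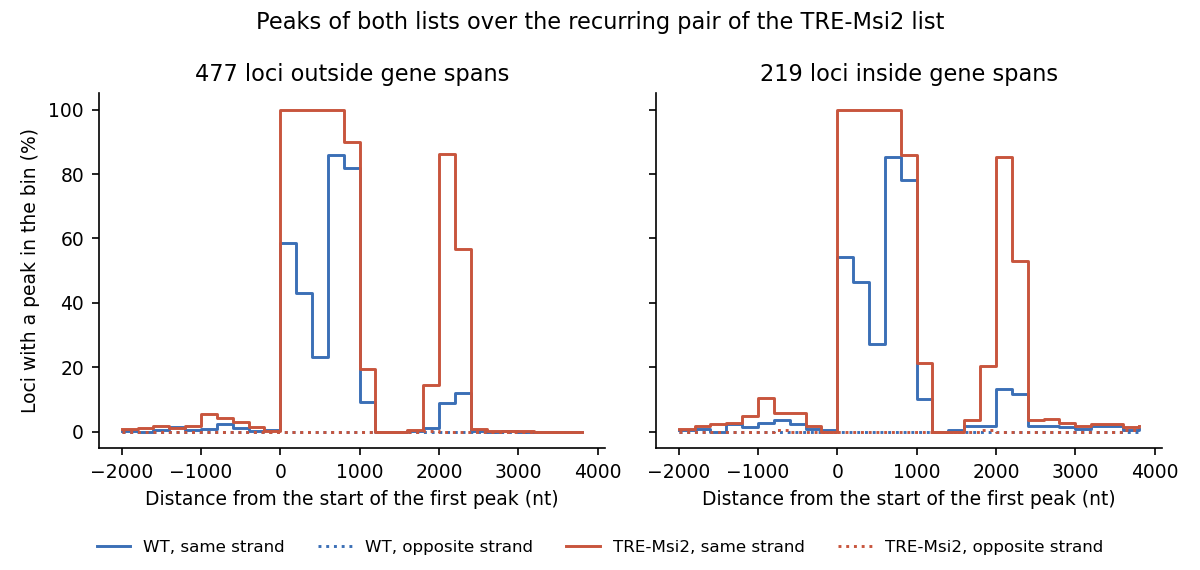
Share of recurring-pair loci with a peak (vertical axis, %) in each 200-nt bin along the strand of the pair, by distance from the start of the first peak (horizontal axis, nt), for 477 loci outside genes on the left and 219 inside on the right. Solid lines are peaks on the strand of the pair and dotted lines the opposite strand. The solid TRE-Msi2 lines are high over both peaks by the definition of the pair, which also leaves out wide peaks with a second peak on the opposite strand only. The solid WT line outside genes reaches 86.0% over the first peak and 11.9% over the second.

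By its definition the pair adds clustered peaks and first peaks wider than 1 bin, so leaving it out must lower clustering and raise the single-bin share. Without its peaks, 57.0% of the remaining 3315 TRE-Msi2 peaks outside genes were in clusters (55.3% to 58.7%), against 51.0% (50.1% to 51.9%) inside genes treated the same way. Single-bin peaks then made up 53.3% outside and 64.7% inside. The WT share in clusters was not recomputed without these loci, though several WT peaks lay over the first peak at 364 of the 477. Peaks of the pair had a same-strand WT partner in 60.9% of cases, against 51.2% of the other TRE-Msi2 peaks outside genes. The 60.9% joins 99.6% for first peaks and 22.2% for second peaks. These groups were not matched for width, and sharing of TRE-Msi2 peaks outside genes was 75.9% for wider peaks and 27.0% for single bins. Strand labels differed at the place of the second peak, counted here for any peak of at most 400 nt there, whether or not it was the next neighbour. Of the 413 minus-strand TRE-Msi2 peaks of 800 to 1200 nt outside genes, 204 had such a peak on the minus strand, while 106 had one on the plus strand only, with a median score of 28.5. Of the 398 on the plus strand, 284 had one on the plus strand and 16 on the minus strand only. None of the 106 and 16 was overlapped by a same-strand WT peak.

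The largest clusters were long rows of peaks on 1 strand, present in both lists. On chromosome 7, chr7:30688582-30697581 on the plus strand held 9 WT peaks with scores from 14 to 52 and 8 TRE-Msi2 peaks with scores from 21 to 45.2. It lay 1304 nt before the 5' end of 2200002J24Rik, on the strand of that gene. On chromosome 11, chr11:6745398-6758397 on the minus strand held 9 WT and 10 TRE-Msi2 peaks over 13 kb, 23.11 kb from the pseudogene Gm11977, with highest scores of 41.5 and 47.8. A cluster of 8 WT and 7 TRE-Msi2 peaks, chr10:41436595-41445594, began 3025 nt beyond the 3' end of Ak9 on its strand, and includes the peaks counted for that gene above.

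Other large WT clusters were chr11:86882299-86891298, with 9 WT and 5 TRE-Msi2 peaks, 12.5 kb beyond Gm38942 on its strand, and chr8:123164701-123171900, with 8 and 4, 661 nt before Gm4316 on its strand. In the TRE-Msi2 list chr17:54108627-54112074 held 10 peaks in only 3.448 kb, some of which overlap each other, and the WT list had 5 there. The remaining clusters named were chr11:19409598-19415797 with 8 TRE-Msi2 and 7 WT peaks and chr17:42890052-42895051 with 8 and 5, the latter 13.3 kb before Cd2ap on the opposite strand. Of these 8 regions 4 had a nearest gene of known strand on the strand of the cluster, 1 on the opposite strand, and 3 a pseudogene of unknown strand.

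The 10 strongest peaks outside genes were largely the same in both lists: 7 of the 10 had identical positions, and all 10 of each list were overlapped by the other list. The strongest WT peak, chr6:49236402-49236601 on the minus strand, scored 103 and its TRE-Msi2 counterpart 91. It lay 7319 nt beyond the 3' end of Tra2a, a splicing regulator, on the same strand. The strongest TRE-Msi2 peak, chr6:44792802-44793401 on the plus strand, scored 100.3 and 97.7 in the WT list. It lay 266.7 kb before Cntnap2, a neuronal adhesion gene. Of the 10 in each list 5 had a protein-coding nearest gene, and the distances ran from 7.319 (WT) or 4.96 kb (TRE-Msi2) to 266.7 kb in both.

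The others at the same position in both lists were on chromosomes 8, 3, 13, X and 4. They were chr8:15519601-15520200 (plus strand, scores 95.7 in WT and 73.75 in TRE-Msi2, 10.2 kb before Gm46033), chr3:5860201-5861000 (plus, 89.5 and 93.5), chr13:9834155-9834554 (minus, 89 and 95), chrX:116286992-116287391 (minus, 75.5 and 82.5) and chr4:72027967-72028166 (minus, 65 and 73). The last lay 81.8 kb beyond Tle1, a transcriptional corepressor, on its strand. Named in the WT list alone were peaks on chromosome 15 with a score of 90, near Gm15569, on chromosome 10 with 71, opposite Eea1, and on chromosome 16 with 67, near Rimbp3. Named in the TRE-Msi2 list alone were chr15:93234370-93234769 with a score of 83.5, 4.96 kb beyond Gxylt1 on the opposite strand, a chromosome 1 peak with 82, and another with 72, 6.091 kb beyond Tmco1 on the opposite strand. Strong peaks were therefore found far from genes and on either strand.

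Sharing between the lists was counted in each direction as a same-strand overlap of at least 1 base. Of WT peaks outside genes 2899 of 3133 (92.5%, 91.6% to 93.4%) had a TRE-Msi2 partner, near the 90.9% of peaks inside genes and the 91.3% of all WT peaks. Of TRE-Msi2 peaks outside genes 2278 of 4269 (53.4%, 51.9% to 54.9%) had a WT partner, below the 59.0% inside genes and the 57.6% of all. All 2278 had a WT partner that itself lay outside genes. With strand ignored the shares were 94.7% and 54.9%. The TRE-Msi2 list is longer, so the direction from TRE-Msi2 to WT has fewer possible partners.

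The difference in sharing between TRE-Msi2 peaks outside and inside genes changed direction with the score. Among peaks at or above the list median of 24.7, 55.6% (53.4% to 57.9%) outside genes and 76.7% (75.7% to 77.8%) inside had a WT partner. Below that median the order turned, with 51.5% (49.4% to 53.5%) outside and 39.97% (38.7% to 41.2%) inside. The recurring pair enters both parts. Its first peaks, with a median score of 22.4, had a WT partner at 99.6% of loci, and its second, with a median of 28.3, at 22.2%. The shares above and below the list median were not computed without the pair, so the turn may not hold for the other peaks. With both lists restricted to their upper part by score, the shares were 30.6% outside and 54.0% inside for TRE-Msi2 and 47.3% and 74.2% for WT. The partner list is shorter in that setting too. Single-bin TRE-Msi2 peaks outside genes were shared at 27.0% (25.1% to 29.03%) and those inside at 45.1% (44.0% to 46.2%). Among the upper 10% of each group by its own scores, 75.6% (71.2% to 79.6%) were shared outside genes and 97.3% (96.2% to 98.1%) inside, and with 1 threshold for both, the upper 10% of the whole list, 87.6% (82.7% to 91.5%) and 96.8% (95.8% to 97.6%). Within the upper 10% of TRE-Msi2 peaks outside genes, peaks of the recurring pair were shared in 34 of 74 cases (45.9%, 34.3% to 57.9%) and the others in 291 of 356 (81.7%, 77.3% to 85.6%). The upper 10% of WT peaks outside genes were shared at 99.4%.

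**Figure D5:**
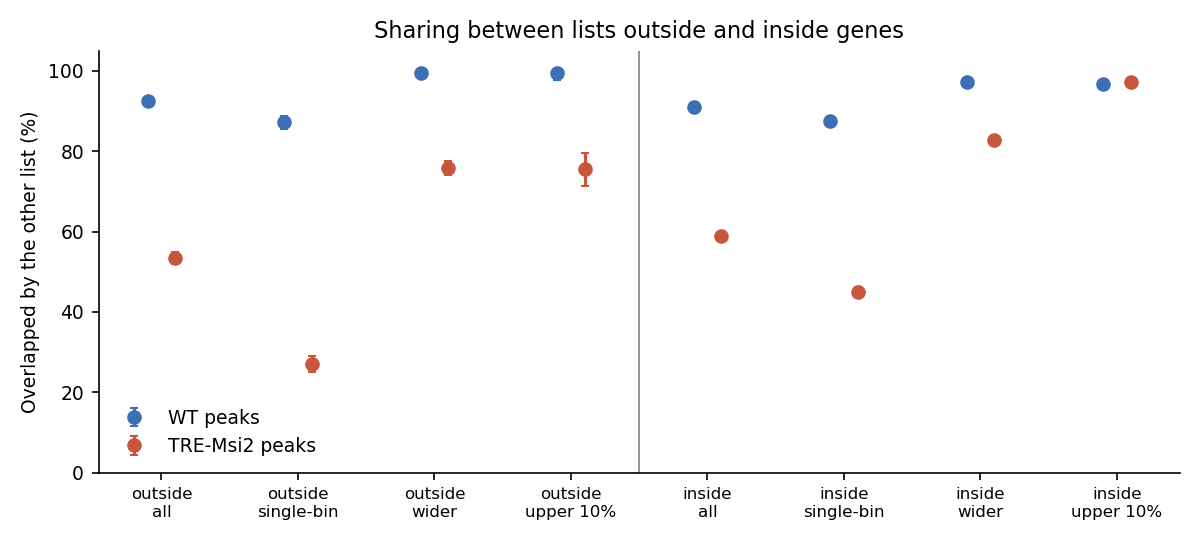
Share of peaks overlapped on the same strand by a peak of the other list (vertical axis, %), for all peaks, single-bin peaks, wider peaks and the upper 10% by score (horizontal axis), outside genes on the left of the grey line and inside on the right. Points are shares of WT peaks and of TRE-Msi2 peaks and bars 95% exact binomial intervals; single-bin TRE-Msi2 peaks are shared at 27.0% outside genes and 45.1% inside.

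Peaks without a partner differed by strand. Of the 1991 TRE-Msi2 peaks outside genes that no WT peak overlapped on the same strand, 1162 were on the plus strand (58.4%, 56.2% to 60.5%). The share was 51.8% of the shared ones and 51.0% of the peaks inside genes that were not shared. The 1991 include 67 peaks that a WT peak overlapped on the opposite strand only, 66 of them on the plus strand. Of the 234 WT peaks outside genes without a partner 74 were on the plus strand (31.6%), against 45.3% of the unshared WT peaks inside genes. These 234 include the 68 peaks that a TRE-Msi2 peak overlapped on the opposite strand only, 67 of them on the minus strand in the WT list. Leaving out the 107 plus-strand TRE-Msi2 peaks that lie at the second place of a minus-strand wide peak took the share among the unshared to 56.0% (53.7% to 58.3%). That step removed plus-strand peaks only, so the share could only fall. The 5 strongest TRE-Msi2 peaks without a partner were all on the plus strand, with scores of 42, 42, 41, 41 and 41, and the highest on chromosome 1, chr1:169547670-169547869, lay 5202 nt beyond Gm34624 on its strand. The strongest WT peak without a partner, chr17:39844456-39844655 on the plus strand, scored 32 and lay 1698 nt from Rn18s-rs5, which the table lists as a pseudogene and whose name refers to 18S ribosomal RNA. The WT peak past Enpp7 with a score of 23 was also among the 5 strongest unshared ones.

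The chromosomes differed in how many peaks fell outside genes. On the Y chromosome 79 of 80 WT peaks and 110 of 111 TRE-Msi2 peaks were outside genes, and on X 40.1% and 41.5%, while on chromosome 19 the shares were 11.6% and 9.90%. Per megabase outside gene spans the Y chromosome had few, 0.902 WT peaks and 1.26 TRE-Msi2 peaks, against 2.15 and 2.93 over the genome. Chromosome 7 had most, 2.88 and 4.11. The 30 recurring-pair loci on X and 6 on Y show that these were not kept to the autosomes. All mitochondrial peaks, 7 and 6, were inside genes.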

How the data were processed

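Values are the authors' deposited peak lists, 1 per genotype with its 2 libraries merged, and their names describe duplicate removal and Piranha peak calling. The submitters' processing notes name cutadapt, TopHat, mm9 and mm10, without versions. Each deposited row joins a score and a p-value in 1 cell. Scores were used as deposited by the authors, and the p-value was not used.

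Peaks were set against 49980 placed genes of a RefSeq table on GRCm38.p6, 21900 of them protein-coding, with Python 3.11.15, pandas 2.3.3, numpy 2.4.6, scipy 1.17.1 and matplotlib 3.10.9. The table holds no strand. Strand came from the RefSeq promoter and miRNA tables, for 28097 genes. A genome sequence, exons and repeats were not used here. Distances run from the nearer peak edge. Clusters join same-strand gaps of at most 2 kb, and sharing needs 1 base on the same strand. Shares carry 95% Clopper-Pearson intervals. With 1 pooled list per genotype no test was made. The steps were tested on simulated data.

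Named were, per list, the 10 peaks with the highest score, the 5 clusters with most peaks, the 10 genes with most same-strand peaks within 5 kb beyond the 3' end, the 5 strongest unshared peaks, the 3 farthest peaks, and gene list members with such a peak. Peaks on chromosome 18 that fell under this rule are left out of the text. The members, lists and rules were chosen with earlier results of these data known. Alternatives covered gene sets, distance, score, width, gap, strand and overlap.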

Additional observations from a re-analysis of the deposited data

Results flagged for a closer look

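Peaks on contigs that are not placed on a chromosome were outside the description above, which used placed chromosomes only. The WT list had 9 such peaks, with scores from 15 to 27.3, and the TRE-Msi2 list had 11, with scores from 16.4 to 32. They are listed because no comparison used them, and there is no control library to set them against.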

How the results depend on the processing

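Of 58 alternatives, 22 stayed within the interval of the reported value, or within 1.5 times it for counts of peaks, and 36 moved. No paired analysis was possible because each genotype is 1 pooled list that carries no replicate number, and for the same reason no library could be left out. In the upper part of each list by score (at or above the list median), the WT list had 1335 peaks outside genes (21.3%) and the TRE-Msi2 list 1927 (22.7%). There single-bin peaks made up 72.2% and 51.6%, clustered peaks 43.1% and 42.4%, and shared peaks 47.3% and 30.6%, with the partner list restricted as well. Among single-bin peaks only, 1775 (23.3%) and 1966 (19.7%) lay outside genes, 47.5% and 46.8% scored above the median of peaks inside against 37.6% and 41.3% for all widths, and 87.2% and 27.0% were shared. Counting protein-coding genes only, 10.0% and 9.49% lay within 5 kb of a gene. Same-strand shares beyond the 3' end, 71.6% and 66.4% within 5 kb, were 95.3% and 96.3% within 1 kb, 94.4% and 86.7% within 2 kb, and 63.4% within 10 kb in the WT list. Clustering was 68.1% and 63.3% with a gap of 1 kb, and in the TRE-Msi2 list 70.9% with 5 kb and 76.7% on either strand. Sharing was 94.7% and 54.9% on either strand, and 63.9% and 55.5% with the TRE-Msi2 list shortened by score to the length of the WT list. Without the recurring pair, TRE-Msi2 single-bin peaks were 53.3%, clustered peaks 57.0% and shared peaks 51.2%. The settings on the recurring pair, clustering by score and sharing of single-bin peaks were added after seeing the data. For each other moved value the cause was not tested. Unknown depth limits every comparison between lists.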

Other observations

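Single-bin peaks with a fractional score were almost all on the plus strand. Counting peaks inside and outside genes, 328 of 5172 plus-strand peaks of 200 nt in the TRE-Msi2 list had a fractional score (6.34%), against 1 of 4782 on the minus strand. In the WT list it was 67 of 3845 against 0 of 3774. Of the 328, 134 lay outside genes. In the recurring pair the second peak was a single bin at 133 of the 277 plus-strand loci (48.0%, 42.0% to 54.1%), 42 of them with a fractional score, and at 66 of the 200 minus-strand loci (33.0%, 26.5% to 40.0%), 0 of them fractional. Among the 50 strongest TRE-Msi2 peaks outside genes without a WT partner, 34 were on the plus strand and 20 belonged to the recurring pair. Some deposited rows overlap the row before them on the same strand, 19 WT rows outside genes and 26 TRE-Msi2 rows.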
